A study of Homo sapiens with 6 samples.

Results

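HP, HPR, ORM1, ORM2, CXCR1, CXCR2, OLFM4, LCN2, SAA1 and SAA2 encode acute phase and neutrophil-associated proteins, and they were followed in MCF10A cells after knockdown of the transcription factor PAX9. The 10 genes were matched by exact symbol in the deposited RNA-seq table, in which all 10 had 1 row each, among 26822 distinct symbols and 41656 loci. They had been put together as a group of decreased genes on the same siPAX9 against siNT values that are given here, so their changes are a description and no test was run on them. The grouping held for only some of its genes: 7 of the 10 had a lower value in siPAX9, while LCN2, SAA1 and SAA2 had a higher value.

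MCF10A is an established, non-tumorigenic human breast epithelial cell line. The siNT group received non-targeting siRNAs and the siPAX9 group received siRNAs against PAX9, each at 30 nM for 72 hours, with 3 samples in each group. Both groups were kept in the same medium with horse serum, epidermal growth factor, hydrocortisone, cholera toxin and insulin, so a glucocorticoid was present in the control cells too. The labels give replicate numbers but do not say that samples came from separate cultures. The deposited table holds 1 FPKM (fragments mapped to a locus, scaled to transcript length and to the size of the library) for each group and locus, and no value for a single sample. The study's methods state a range of reads per library, but the table holds no counts and no depth. The spread between samples and the counting error behind each value therefore could not be computed, and every fold below is the ratio of 2 group values with no replicate check.

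The acute phase response is the change in plasma proteins that follows infection or injury. It is best known in the liver, where interleukin-6 acts through STAT3, interleukin-1 acts through NF-kB, and C/EBP factors and the glucocorticoid receptor add to both, but many epithelia make part of the same set. Haptoglobin (HP) binds free hemoglobin, the orosomucoids (ORM1 and ORM2) are lipocalins that carry small lipophilic molecules, and the serum amyloid A proteins (SAA1 and SAA2) ride on high density lipoprotein. LCN2 is a lipocalin that binds bacterial siderophores, OLFM4 is a secreted olfactomedin glycoprotein, and both are stored in neutrophil granules. CXCR1 and CXCR2 are G protein-coupled receptors for CXCL8 and related chemokines, and are best known for drawing neutrophils to sites of inflammation.

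The siRNA target was examined first. PAX9 was listed at 2.80 FPKM in siNT and 0.325 in siPAX9, which was 8.60-fold lower, or -3.10 on the log2 scale. The PAX9 locus in the table overlaps SLC25A21, which stood at 0.861 and 0.487. Over all named genes with an FPKM of at least 1 in both groups the median log2 change was -0.08, and none of 12 housekeeping genes was listed at 0 in either group. The housekeeping genes were not level, with log2 changes from -1.65 (HPRT1, 33.2 and 10.6 FPKM) to 0.46 (YWHAZ) and a median of -0.43, and GAPDH was at 2196 and 1299 FPKM.

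The cell type was checked against marker genes. All 10 breast epithelial markers had an FPKM of at least 1, with basal keratins high in both groups (KRT5 at 1558 in siNT and 1807 in siPAX9, KRT17 at 1718 and 2088). Of these markers CDH1 was at least 2-fold higher in siPAX9 (45.3 and 124) and EPCAM at least 2-fold lower (34.3 and 16.7), a call that was lost with 1 added and when changes were centred on the median of named genes. None of 9 hepatocyte markers reached an FPKM of 1 in either group, and albumin (ALB) was at 0.0231 in siNT and 0.0299 in siPAX9. Of 14 markers of neutrophils and their precursors, 12 had a row, and 6 of these were listed at 0 in both groups, namely ELANE, AZU1, CTSG, DEFA4, FCGR3B and CEACAM8. Only the formyl peptide receptor FPR1 passed an FPKM of 1, at 8.42 in siNT and 3.39 in siPAX9, and the summed FPKM of the neutrophil markers was 9.01 in siNT and 4.36 in siPAX9. The pan-leukocyte marker PTPRC was at 0.0166 in siNT and 0.0922 in siPAX9, and the summed FPKM of 7 leukocyte markers was 21.4 in siNT and 62.6 in siPAX9, of which CD14 made up 14.4 and 56.5. LAPTM5 of the same list was lower in siPAX9, at 4.33 and 1.65. The part of these marker differences in the members' values was not tested. In bulk RNA, fewer cells that express a gene and less RNA in each cell cannot be told apart.

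Sequences of the members whose letters bear on their values are given first, because 8 of the 10 members form 4 pairs of neighbouring paralogs and reads from a pair can be assigned to either gene. The first 76 coding bases, the length of a read in this study, were taken from the annotated transcripts on GRCh37, with capitals marking bases that differ within a pair. They are shown for the pairs that differ by at most 1 base over that stretch.

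ORM1 coding start: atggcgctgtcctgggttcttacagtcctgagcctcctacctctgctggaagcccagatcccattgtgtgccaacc
ORM2 coding start: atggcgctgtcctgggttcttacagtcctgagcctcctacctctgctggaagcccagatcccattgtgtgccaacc
SAA1 coding start: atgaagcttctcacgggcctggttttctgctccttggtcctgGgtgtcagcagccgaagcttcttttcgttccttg
SAA2 coding start: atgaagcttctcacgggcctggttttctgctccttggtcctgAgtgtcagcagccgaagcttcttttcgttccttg

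Over these 76 bases ORM1 and ORM2 had 0 differences and SAA1 and SAA2 had 1. A read from the start of the ORM coding sequence cannot be placed on one gene by its letters alone. HP, a serine protease homolog that has lost its catalytic activity, and its haptoglobin-related neighbour HPR differ in arrangement near the start, and their transcripts shared an unbroken run of 197 bases. The longest shared run was 242 bases for the ORM pair, 186 for the SAA pair and 122 for the CXCR pair.

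Each canonical transcript was then cut into all its windows of 76 bases, and windows found in a transcript of the paralog were counted. This share was 41.2% for ORM1 and 41.5% for ORM2, 26.0% for SAA1 and 23.2% for SAA2, and 23.9% for HP and 28.4% for HPR. It was 1.97% for CXCR1 and 1.69% for CXCR2, and for OLFM4 and LCN2 no window was found in any other gene. For SAA2, windows found in any other gene, including the SAA2-SAA4 read-through, made up 38.9%. With windows of 50 bases the shares rose to 49.8% for ORM1, 40.9% for SAA1, 34.5% for HP and 5.19% for CXCR1. The division of reads within the HP, ORM and SAA pairs is therefore uncertain, while the values of CXCR1, OLFM4 and LCN2 rest almost wholly on sequence found in no other gene.

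**Figure D1:**
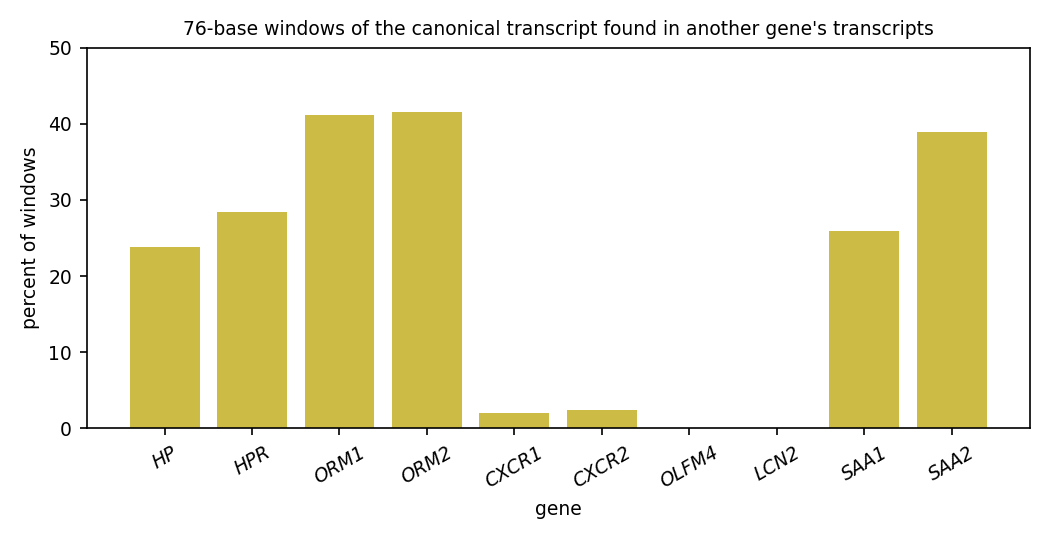
Percent of 76-base windows of each member's canonical transcript (y axis) that also occur in a transcript of any other gene, for the 10 genes (x axis). ORM1, ORM2 and SAA2 share the most, CXCR1 and CXCR2 about 2%, and OLFM4 and LCN2 have no bar because no window was shared.

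HP and HPR lie next to each other on chromosome 16. The HP locus (hg19 chr16:72088491-72094955, plus strand) was at 33.2 FPKM in siNT and 0.469 in siPAX9. HP was thus 70.9-fold lower in siPAX9, a log2 change of -6.15, or -4.54 with 1 added to each FPKM. HPR (chr16:72097125-72111145, plus strand), which encodes a haptoglobin-related protein found in a trypanosome-killing complex with APOL1, begins 2169 bases past the end of HP. Its FPKM was 5.85 in siNT and 0.109 in siPAX9, which was 53.8-fold lower, or -5.75 on the log2 scale and -2.63 with 1 added. Both genes were thus under 1 FPKM after knockdown. The FPKM of HP was 5.68 times that of HPR in siNT and 4.31 times in siPAX9, so the ratio of the levels moved far less than either level.

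The 2 orosomucoid genes lie on chromosome 9. ORM1 (chr9:117085303-117088759, plus strand) was at 2.66 FPKM in siNT and was listed at 0 in siPAX9, so no fold is given, and the log2 change with 1 added was -1.87. ORM2 (chr9:117092069-117095536, plus strand), which begins 3309 bases past the end of ORM1, was at 0.687 FPKM in siNT and was also listed at 0 in siPAX9. ORM2 stayed under an FPKM of 1 in both groups and was not counted. Both genes were low in the control cells, and a listed 0 in a table without counts does not give a lower bound. Of 13622 named genes that reached 1 FPKM in either group, 54 (0.396%) were listed at 0 in siPAX9 with 1 FPKM or more in siNT.

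The chemokine receptor genes lie on chromosome 2 in opposite orientations. CXCR1 (chr2:219025845-219031716, minus strand) was at 35.8 FPKM in siNT and 0.562 in siPAX9, 63.7-fold lower, or -5.99 on the log2 scale and -4.56 with 1 added. CXCR2 (chr2:218990013-219001976, plus strand), 23868 bases away, was at 1.10 FPKM in siNT and 0.0808 in siPAX9, 13.6-fold lower, or -3.77 on the log2 scale and -0.96 with 1 added. CXCR1 was the more abundant of the pair in control cells, at 32.5 times the FPKM of CXCR2, and in siPAX9, with both under an FPKM of 1, the ratio was 6.95. CXCR2 passed the minimum FPKM by little, and its fold rests on a very small value in siPAX9.

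OLFM4 stands alone on chromosome 13 (chr13:53602876-53626196, plus strand). Its FPKM was 54.4 in siNT, the highest level in control cells among the 7 members with a lower value in siPAX9, and 1.28 in siPAX9. This was 42.3-fold lower, or -5.40 on the log2 scale and -4.60 with 1 added. By FPKM it stood at rank 1508 of the 26822 named genes in siNT and at rank 12837 in siPAX9.

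LCN2 moved in the opposite direction. LCN2 (chr9:130911709-130915734, plus strand) was at 3.73 FPKM in siNT and 144 in siPAX9, which was 38.6-fold higher, or 5.27 on the log2 scale and 4.94 with 1 added. In siPAX9 it was at rank 433 by FPKM, against rank 10546 in siNT. With 1 added, the change of LCN2 was the 5th largest increase among 17114 single-symbol protein-coding genes, a ranking chosen after the data were seen. Among all 25034 single-symbol loci it was at rank 25005, counted from the largest decrease. LCN2 and OLFM4, which share a neutrophil granule compartment, were thus at opposite ends of the distribution of changes.

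The serum amyloid A genes were the highest members by far. SAA1 (chr11:18287772-18291523, plus strand) was at 3173 FPKM in siNT and 4513 in siPAX9, 1.42-fold higher, or 0.51 on the log2 scale. The SAA2 row is a locus that also holds SAA2-SAA4 and SAA4 (chr11:18252902-18270221, minus strand), and was at 1708 FPKM in siNT and 2585 in siPAX9, 1.51-fold higher, or 0.60 on the log2 scale. Neither reached 2-fold. SAA1 was at rank 12 of all named genes by FPKM in siNT and at rank 6 in siPAX9, and the ratio of SAA1 to SAA2 was 1.86 in siNT and 1.75 in siPAX9.

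**Figure D2:**
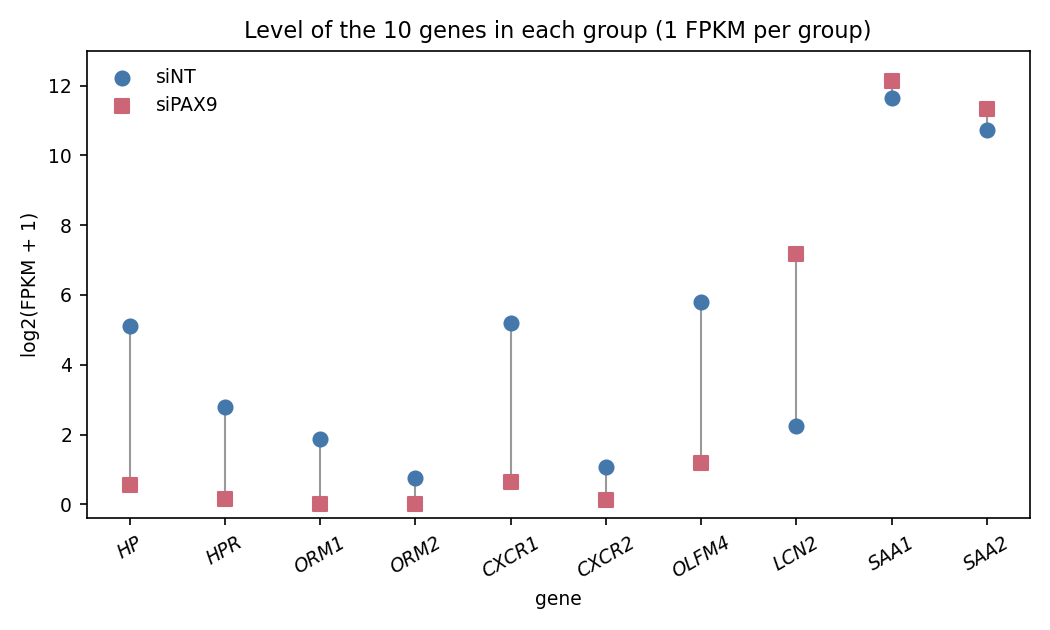
Level of the 10 genes as log2(FPKM + 1) (y axis), with 1 value per group and no error bar because the values are per group; circles are siNT and squares are siPAX9. In siPAX9, HP, HPR and CXCR1 are under 1 FPKM and OLFM4 is at 1.28, LCN2 stands at 3.73 in siNT and 144 in siPAX9, and SAA1 and SAA2 stay above all other members in both groups.

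Counted with a threshold of 2-fold and a minimum of 1 FPKM in either group, 6 members were lower (HP, HPR, ORM1, CXCR1, CXCR2 and OLFM4), 1 was higher (LCN2), 2 were neither (SAA1 and SAA2) and 1 was under the minimum FPKM (ORM2). Of the 13622 named genes past the same minimum, 984 (7.22%) were lower and 1056 (7.75%) were higher. The members had been picked on these values, so nothing is read from the excess over that share. Just inside the threshold stood CXCR2, with 1.10 FPKM in siNT, and just outside it ORM2, with 0.687 FPKM, and SAA2, at 1.51-fold. With 1 added to each FPKM, 5 members were lower, without CXCR2, and 1 was higher, as were 4.89% and 5.00% of named genes. Among protein-coding named genes the 2-fold shares were 6.68% lower and 6.40% higher. At a 4-fold threshold 239 named genes (1.75%) were lower and 436 (3.20%) were higher, and at 1.5-fold 2319 (17.0%) were lower and 2012 (14.8%) were higher.

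The members were then ranked among all decreased genes. When single-symbol loci of every kind were ranked by the log2 change with 1 added, the 15 largest decreases were all microRNA, small nucleolar or vault RNA symbols, led by MIR8072, MIR3188 and SNORD87. Of the 15, 14 were listed at 0 in siPAX9. Small RNAs of this length are poorly covered by poly(A)+ libraries, and none of the 15 was a member. A second ranking, chosen after the data were seen, kept protein-coding genes only. The largest decrease was then CHI3L1, a chitinase-like glycoprotein that neutrophil granules also hold, at 261 FPKM in siNT and 8.09 in siPAX9, followed by OLFM4, CXCR1 and HP. HPR was at rank 9, ORM1 at rank 48, CXCR2 at rank 532 and ORM2 at rank 960. The other genes of the first 9 were PHGDH, the first enzyme of serine synthesis (45.5 FPKM in siNT and 1.20 in siPAX9), the small ribosomal subunit protein gene RPS28 (98.6 and 6.23), the kinase subunit gene CAMK2B (23.9 and 1.30) and the metallothionein gene MT1E (3361 and 488). A pattern over 2 groups is no more than the change itself, so likeness to these genes is a likeness of size only.

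**Figure D3:**
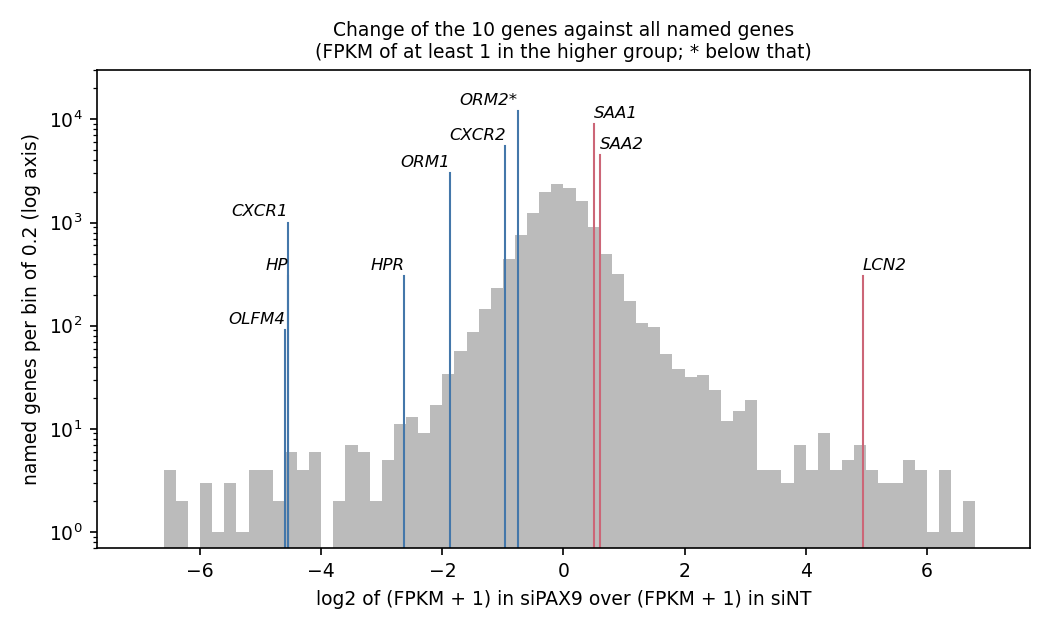
Number of named genes (y axis, log scale) in each bin of 0.2 of the log2 change with 1 added (x axis), for genes that reach 1 FPKM in either group, with a line at each of the 10 genes (blue lower, red higher in siPAX9; line height carries no value). HP (-4.54), CXCR1 (-4.56) and OLFM4 (-4.60) nearly coincide in the left tail, LCN2 (4.94) lies in the right tail, and SAA1 (0.51) and SAA2 (0.60) lie near the centre.

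Loci within 100 kb of the members were examined to see how far along the chromosome a change reached. There were 32 named rows with 30 distinct symbols, some of which share coordinates. Of these rows 19 reached 1 FPKM in either group, 2 were at least 2-fold lower and 0 were higher, beside the 7.22% and 7.75% of all named genes. Both lower rows were at the same locus, that of RUFY4, a gene for a RUN and FYVE domain protein beside CXCR2, at 2.60 and 1.23 FPKM in siNT and listed at 0 in siPAX9. A further 16 loci had no symbol, and among the 15 past the minimum, 5 were lower, 5 were higher and 5 were neither. Over all unnamed loci past the minimum, 39.4% were at least 2-fold apart in either direction.

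Around CXCR1 and CXCR2, 6 unnamed loci passed the minimum, 4 at least 2-fold lower and 2 higher in siPAX9. Over all unnamed loci past the minimum, 39.4% were past 2-fold in either direction. A set of 3 short loci without a symbol that lie between the receptor genes, on the CXCR1 side, had an FPKM of 1.73, 1.54 and 1.12 in siNT, and of 0, 0 and 0.0217 in siPAX9 (chr2:219020159-219020578, chr2:219020719-219021405 and chr2:219021566-219022916). No annotated gene overlapped them, and like the RUFY4 rows they passed the minimum only through siNT. Another unnamed locus between the receptors (chr2:219017137-219017427) was higher, at 1.59 FPKM in siNT and 12.8 in siPAX9. On the far side of CXCR1, 2 more unnamed loci were at 128 and 283 FPKM (chr2:219039542-219039690) and at 2062 and 1013 FPKM (chr2:219066303-219066412). Beyond CXCR1, ARPC2, a subunit of the actin-nucleating ARP2/3 complex, was at 222 FPKM in siNT and 177 in siPAX9, and AAMP was at 48.7 and 39.4. At both of these named genes the values were within 2-fold.

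**Figure D4:**
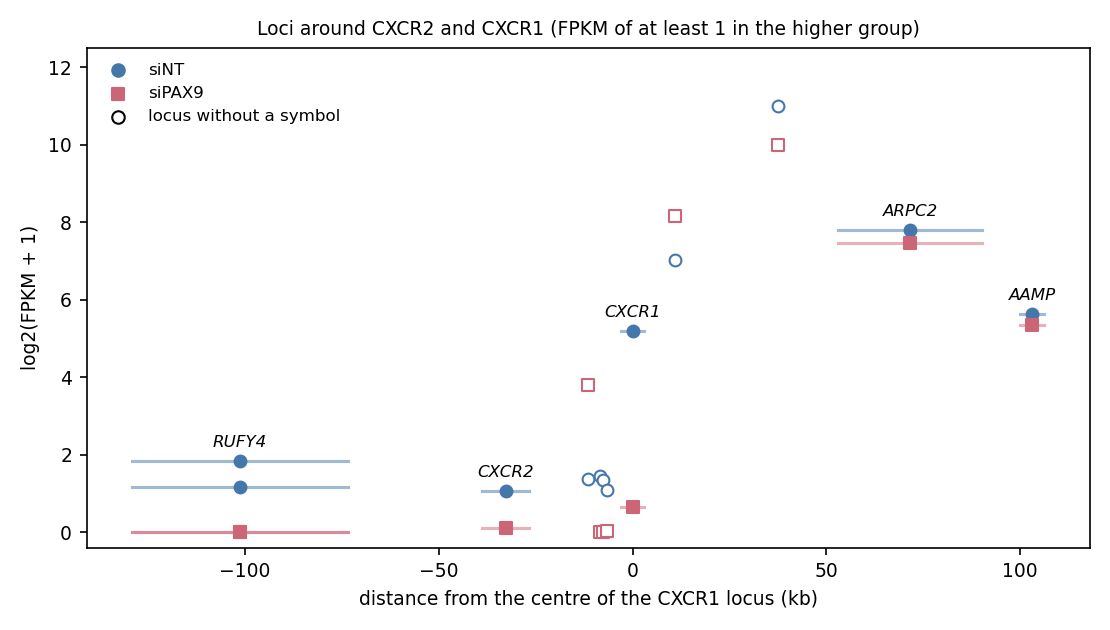
Levels as log2(FPKM + 1) (y axis) of loci around CXCR2 and CXCR1 against distance from the centre of the CXCR1 locus in kb (x axis), for loci that reach 1 FPKM in either group. Bars span each locus, circles are siNT, squares are siPAX9 and open symbols are loci without a symbol. RUFY4, CXCR2, 3 unnamed loci and CXCR1 sit near 0 in siPAX9, while the other unnamed loci stand higher and ARPC2 and AAMP stay close to their siNT level.

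The other member loci had no named neighbour that passed 2-fold among those that reached 1 FPKM in either group. Beside HP and HPR, DHODH, an enzyme of pyrimidine synthesis, was at 6.62 FPKM in siNT and 3.73 in siPAX9, which was 1.77-fold lower, and PKD1L3 was 1.70-fold lower. Their neighbours DHX38 (10.2 and 13.2 FPKM), TXNL4B (8.17 and 6.38) and IST1 (17.3 and 19.7) differed less. Beyond ORM2 lie AKNA (3.28 and 2.82) and WHRN (4.48 and 4.26), and before ORM1 lies COL27A1 (0.869 and 0.775). Beside LCN2, C9orf16 was 1.77-fold higher (60.3 and 107 FPKM), while CIZ1 (24.3 and 25.3) and SLC25A25 (4.21 and 4.57) were close to their siNT level. Beside the SAA genes, HPS5 (10.6 and 13.7 FPKM) and GTF2H1 (16.9 and 17.3) were within 2-fold. Of the unnamed loci there, 3 were higher and 1 was lower, such as chr11:18211352-18211455 (124 FPKM in siNT and 397 in siPAX9) and chr11:18284719-18284908 (186 and 80.3). The only named locus near OLFM4, LINC01065, was listed at 0 in both groups.

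Promoter sequences were compared because members with large changes in opposite directions, such as OLFM4 and LCN2, could be set side by side. RefSeq promoter entries on GRCh38.p14 matched 5 of the 10 members, CXCR1, CXCR2, LCN2, OLFM4 and ORM1. The 250 bases before the start, 5′ to 3′ on the gene's strand, are printed for the 4 that held a match to a motif searched, with the match in capitals. They lie at chr2:218166963-218167212 (CXCR1, minus strand), chr13:53028563-53028812 (OLFM4), chr9:114322848-114323097 (ORM1) and chr9:128149203-128149452 (LCN2), the last 3 on the plus strand.

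CXCR1 promoter: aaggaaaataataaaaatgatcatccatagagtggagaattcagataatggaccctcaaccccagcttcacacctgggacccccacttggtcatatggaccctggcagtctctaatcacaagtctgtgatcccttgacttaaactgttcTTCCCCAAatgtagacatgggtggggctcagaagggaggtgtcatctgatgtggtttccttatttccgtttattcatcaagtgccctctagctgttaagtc
OLFM4 promoter: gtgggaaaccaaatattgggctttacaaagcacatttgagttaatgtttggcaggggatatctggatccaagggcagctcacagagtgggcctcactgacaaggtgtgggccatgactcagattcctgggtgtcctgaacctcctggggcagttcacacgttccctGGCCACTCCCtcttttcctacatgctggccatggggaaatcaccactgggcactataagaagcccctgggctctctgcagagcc
ORM1 promoter: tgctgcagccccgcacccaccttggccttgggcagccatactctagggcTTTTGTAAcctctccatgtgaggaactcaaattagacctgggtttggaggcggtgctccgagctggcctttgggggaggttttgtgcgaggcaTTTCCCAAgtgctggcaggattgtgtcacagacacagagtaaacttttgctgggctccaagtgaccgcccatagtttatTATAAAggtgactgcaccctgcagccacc
LCN2 promoter: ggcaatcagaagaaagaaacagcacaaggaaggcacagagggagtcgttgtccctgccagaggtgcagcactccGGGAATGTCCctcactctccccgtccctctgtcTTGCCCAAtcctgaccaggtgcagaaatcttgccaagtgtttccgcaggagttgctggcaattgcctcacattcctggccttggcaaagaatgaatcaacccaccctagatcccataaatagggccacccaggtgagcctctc

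A set of 6 short motifs was searched on both strands, no match overlapped another, and a match is a description of letters, not a bound site. The C/EBP letters TTNNGNAA were found before CXCR1 (TTCCCCAA, on the other strand), ORM1 (TTTTGTAA, and TTTCCCAA on the other strand) and LCN2 (TTGCCCAA, on the other strand), in 3 of 5 members against 33.2% of 35114 RefSeq promoters. The NF-kB letters, GGG, 2 free letters, T, 2 free letters and CC, were found before LCN2 (GGGAATGTCC) and OLFM4 (GGCCACTCCC, on the other strand), in 2 of 5 against 19.7%. The exact letters TATAAA of a TATA box were found before ORM1 alone, in 1 of 5 against 10.7%. Variants of these letters were not searched for. The STAT letters TTCNNNGAA (6.57% of promoters), the glucocorticoid receptor letters GNACA and TGTNC with 3 free letters between them (0.328%) and the paired domain core GCGTGAC (2.20%), a motif of the protein family that includes PAX9, were found in none of the 5 windows. The NF-kB match before LCN2 lies 176 to 167 bases before the start and that before OLFM4 84 to 75 bases before it, so a match stood before a gene that was higher and before a gene that was lower in siPAX9. Within the last 100 bases the count was 1 of 5 for NF-kB, 1 of 5 for TATAAA and 0 of 5 for the others.

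The other genes of the same systems were then counted from lists, which were written with earlier results of these data known. Each has its median log2 change with 1 added, beside the median of -0.06 over the 13622 named genes. Of those named genes, 7.22% were at least 2-fold lower and 7.75% higher, and these shares apply beside the counts of every list. Listed positive acute phase proteins did not share one direction. Of 22 with a row, 9 passed the minimum FPKM, 2 were at least 2-fold lower, 2 higher and 5 neither, with a median of -0.08. One of the 5 was SAA4, whose row is the SAA2 locus itself, and without that row 8 passed, 4 were neither and the median was -0.19. SERPINA1, the main inhibitor of neutrophil elastase, was at 82.3 FPKM in siNT and 16.7 in siPAX9 (4.93-fold lower), and the complement protease gene C1R was at 99.3 and 41.2 (2.41-fold lower). The complement genes C3 (399 and 955, 2.39-fold higher) and CFB (56.9 and 184, 3.24-fold higher) were higher, and SERPINA3 was at 604 and 698. None of 8 negative acute phase proteins reached an FPKM of 1.

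Genes for other neutrophil granule proteins were also divided. Of 17, 4 passed the minimum, with a median of -0.68. CHI3L1 was 32.3-fold lower, LTF, which encodes the iron-binding protein lactoferrin, was 3.15-fold lower (137 FPKM in siNT and 43.6 in siPAX9), and SLPI, a secreted protease inhibitor, was 4.58-fold higher (296 and 1358). HPSE was at 1.04 and 1.47.

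Epithelial antimicrobial proteins were the list with the most higher genes. Of 16 with a row, 10 passed the minimum, 6 were at least 2-fold higher, 1 lower (LTF) and 3 neither, with a median of 1.36. Of all named genes past the minimum, 7.75% were higher and 7.22% lower. The elastase inhibitor PI3 was at 28.0 FPKM in siNT and 1414 in siPAX9 (50.4-fold higher), S100A7 at 168 and 1666 (9.89-fold), S100A12 at 3.78 and 20.1 (5.30-fold) and RNASE7 at 1.25 and 5.71 (4.57-fold). DEFB1 was listed at 0 in siNT and at 1.21 in siPAX9, so it passed the minimum only through siPAX9. S100A8 (5311 and 6830) and S100A9 (7814 and 8605), the subunits of calprotectin, were high in both groups and, like SAA1 and SAA2, stayed under 2-fold.

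Around the receptors, the ligands and the signalling proteins differed far less than CXCR1. Of 7 ligands of CXCR1 and CXCR2, 4 passed the minimum, with a median of -0.18. CXCL2 was 2.04-fold lower (79.5 FPKM in siNT and 39.0 in siPAX9), and CXCL1 (202 and 186), CXCL3 (5.67 and 4.65) and CXCL8 (39.5 and 56.5) were within 2-fold. CXCL2 was no longer past 2-fold when changes were centred on the median. Of 21 other chemokine receptors only ACKR1 (1.43 and 0.683, lower) and CXCR4 (3.08 and 3.38) passed the minimum, and ACKR1 was not past 2-fold with 1 added or when centred. Of 20 signalling proteins, 17 passed, 1 was lower, 1 higher and 15 neither, with a median of -0.23. The lower gene was ARRB1, the arrestin that uncouples and internalises activated receptors (4.58 and 1.93 FPKM), and the higher one RGS2, which speeds the shut-off of G protein signals (18.6 and 60.9 FPKM). The call for ARRB1 was lost with 1 added.

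Receptors and partners of the secreted members gave 2 lower, 2 higher and 4 neither among 8 that passed, with a median of 0.04. FPR1 was 2.48-fold lower, and HBA1, an alpha globin whose protein HP binds as hemoglobin, was at 1.41 FPKM in siNT and 0.309 in siPAX9. CDH1, the epithelial cadherin, was at 45.3 and 124, and HMOX1, which breaks down heme, at 0.841 and 2.51, and the calls for HBA1 and HMOX1 were lost with 1 added. In the protein families of the members, 1 of 16 other lipocalins and 2 of 11 other olfactomedins passed the minimum, and none was past 2-fold in either direction.

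Upstream factors of the acute phase response were counted last. In the IL-6 family and STAT3 pathway, 17 of 19 passed, 4 were lower, 3 higher and 10 neither, with a median of -0.12. Of all named genes past the minimum, 7.22% were lower and 7.75% higher. The cytokine gene IL6 was at 3.61 FPKM in siNT and 0.220 in siPAX9 (16.4-fold lower), the feedback inhibitor gene SOCS3 at 21.0 and 3.32 (6.32-fold lower), and the receptor genes OSMR (70.2 and 26.2) and LIFR (5.63 and 2.66) were 2.68-fold and 2.11-fold lower. CLCF1, an IL-6 family cytokine gene, was 5.70-fold higher (1.00 and 5.72), SOCS1 4.77-fold higher (0.506 and 2.41) and IL11 2.93-fold higher (0.557 and 1.63), while STAT3 itself was at 91.3 and 76.6. SOCS1 and IL11 passed the minimum only in siPAX9, and IL6 only in siNT. With 1 added, LIFR and IL11 were no longer past 2-fold.

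In the NF-kB pathway 22 of 23 genes past the minimum were within 2-fold, with a median of 0.11. The exception was IL1RN, the interleukin-1 receptor antagonist gene, at 0.388 FPKM in siNT and 11.4 in siPAX9 (29.5-fold higher). When changes were centred on the median of named genes IL1B, an interleukin-1 gene at 12.6 FPKM in siNT and 24.7 in siPAX9, also passed 2-fold. NFKBIA, the inhibitor that holds NF-kB in the cytoplasm, was at 216 and 131. All 6 C/EBP genes past the minimum were within 2-fold, with a median of -0.08, among them CEBPD (383 and 212 FPKM) and CEBPB (237 and 172). Of 11 glucocorticoid receptor and responsive genes, 2 were lower and 9 neither, with a median of -0.15. The metallothionein gene MT2A was at 16426 FPKM in siNT and 3901 in siPAX9 (4.21-fold lower) and the kinase gene SGK1 at 62.4 and 22.6 (2.77-fold lower), while FKBP5 was at 286 and 223, DUSP1 at 214 and 198 and the receptor gene NR3C1 at 27.8 and 25.0.

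**Figure D5:**
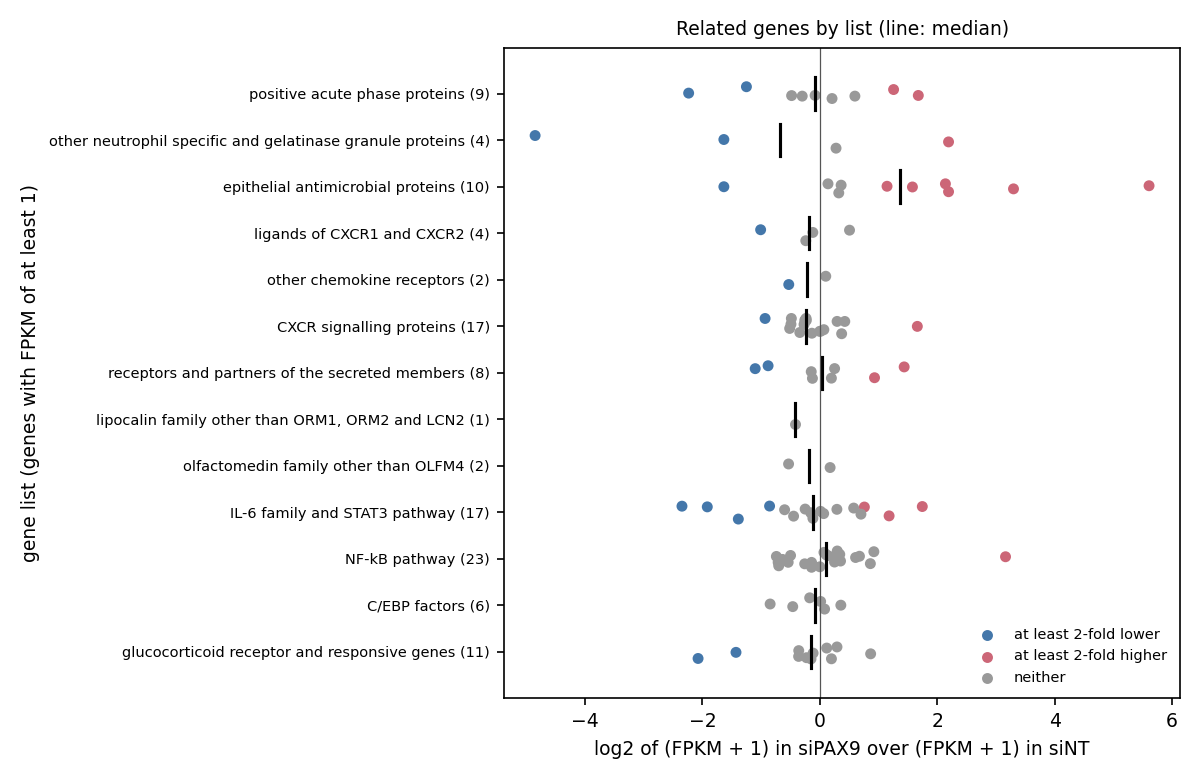
Log2 change with 1 added (x axis) of each gene that reaches 1 FPKM in either group, by list (y axis, number of genes in brackets); blue points are at least 2-fold lower, red points at least 2-fold higher, grey points neither, and the vertical bar is the median. Epithelial antimicrobial proteins have the median farthest to the right (1.36), and the acute phase, NF-kB and C/EBP lists are centred near 0.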

How the data were processed

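RNA-seq was carried out on 3 siNT and 3 siPAX9 samples of MCF10A cells. Per the labels and the study's methods, the authors extracted RNA with TRIzol, sequenced poly(A)+ libraries as single-end 76 base reads, used Bowtie 2 for alignment to the hg19 assembly and Cufflinks for quantification, both in Partek Flow. The versions of Bowtie 2 and Cufflinks are not given in the sources used here. The deposited values are 1 FPKM per group and locus, combined over samples by the authors, and their own fold change, p-value and q-value columns were not used.

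Members were matched by exact symbol after splitting cells at commas, keeping the row with the highest mean FPKM. A gene was counted as lower or higher at a ratio of at least 2 with 1 FPKM or more in whichever group was higher. A value listed at 0 passes with no fold given. Starts were printed 1-based, since adding 1 to the deposited start matched 7120 of 22663 single-symbol loci to an annotated transcript start, against 722 without it. The members, lists and rules were chosen with earlier results of these data known. By rule, at most 6 genes of a list were named, those past 2-fold first and then the highest FPKM in siNT. Outside that rule, and with their values seen, NR3C1, STAT3, IL1B, S100A8, S100A9, PTPRC and ALB were also named. So were the neutrophil markers at 0 and every gene past 2-fold in the longer lists. No depth or counts are in the table, so no interval could be computed. Scripts (Python 3.11.15, pandas 2.3.3, numpy 2.4.6) were tested on simulated data. Of the listed genes, C4B, DEFB103A, DEFA1 and DEFA3 had no row. Alternatives were another fold, minimum FPKM, amount added, centring, locus status and window length.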

Additional observations from a re-analysis of the deposited data

How the results depend on the processing

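No paired analysis was possible because the table gives 1 value per group, and for the same reason leaving out a replicate was not run. Over the 9 other settings run, the count of 6 members lower in siPAX9 ran from 4 (minimum FPKM of 5) to 7 (no minimum). The members were picked on these values, and all had status OK and 1 row, so several settings could not move the count. None of 36 recomputed member changes reversed, but adding the same amount to both groups, or summing a single row, cannot reverse a sign. Centring shifted changes by 0.08 only. At 1.5-fold, 2 members were higher instead of 1, since SAA2 passed. Counts of all named genes followed the threshold: 2319 lower and 2012 higher at 1.5-fold, 239 and 436 at 4-fold, and 2191 and 3797 with no minimum FPKM. The count of higher genes was 681 with 1 added and 552 with a minimum FPKM of 5, against 1056. Distinct list genes, 15 lower and 15 higher, became 24 and 24 at 1.5-fold, 6 and 9 at 4-fold, and 35 and 49 with no minimum. Lower genes near the members, 1 at 2-fold, became 3 at 1.5-fold, 2 with no minimum and 0 with a minimum of 5. Members among the 15 largest decreases were 4 instead of 0 when protein-coding genes alone were ranked. This choice, summing FPKM over the rows of a symbol and leaving the SAA4 row out of its list were made after seeing the data. Of 33 list and marker genes past 2-fold, 7 lost that call with 1 added and 3 when centred, 8 in either.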
